A study of Homo sapiens with 7 samples.

Results

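The nuclear genes of the mitochondrial respiratory chain and ATP synthase were examined for peaks of PPARα, a nuclear receptor activated by fatty acids, in HepG2, a cell line of human hepatocellular carcinoma origin. The genes were chosen by symbol. They are the protein-coding genes on chromosomes 1 to 22 of the RefSeq GRCh38.p14 table whose symbols start with NDUF, SDHAF, UQCR, UQCC, ATP5 or COX plus a digit, together with SDHA, SDHB, SDHC and SDHD. The rule gave 112 genes of 19126, and it used no measured value. They make up 44 genes of complex I, 8 of complex II, 15 of complex III, 25 of complex IV and 20 of complex V, assembly factors and readthrough genes included. The chromatin was precipitated with an antibody to PPARα. The first group, PPARα+ERα, carried expression vectors for PPARα and estrogen receptor alpha and was exposed to the ERα agonist PPT at 10 nM for 45 min and then for 2 h to 10 µM WY14643, an agonist of PPARα. The second, PPARα+ERβ, carried vectors for PPARα and estrogen receptor beta and received the ERβ agonist DPN at 10 nM for 45 min before the same WY14643 step. The third, PPARα, carried the PPARα vector alone and received WY14643 only, so that every group held transfected PPARα and its agonist. Agonists were given 48 h after transfection. Each group had 2 libraries. Nothing in the labels says that they came from separate cultures, so p-values and SDs measure only the spread between these libraries, which may be technical. A no-antibody sample had no peak list here and was not analysed. Peak lists hold no expression, and the identity of the cells was not checked against markers.

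The respiratory chain passes electrons from NADH (complex I) and succinate (complex II) through complex III to oxygen at complex IV, and the proton gradient this builds drives ATP synthase, complex V. Most subunits are encoded in the nucleus, and their genes are known for control by the transcription factors NRF1, NRF2 (an ETS-family complex of GABPA and GABPB1), YY1 and ERRα with the coactivator PGC-1α. PPARα is known in liver chiefly for genes of fatty acid uptake and β-oxidation, which feed electrons into this chain.

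The lists held 24145 and 27180 peaks on chromosomes 1 to 22 in the PPARα+ERα libraries, 17032 and 22697 in the PPARα+ERβ libraries and 23182 and 35229 in the PPARα libraries. Sequencing totals were not analysed here, and the fragments piled up at each summit were recovered from the peak's deposited fold and p. Their median was 9 and 10 fragments with PPARα+ERα, 27 and 30 with PPARα+ERβ and 36 and 51 with PPARα, so PPARα+ERα peaks rest on the fewest fragments and are the least precise. Fold, here and later, is the enrichment at the summit relative to local background as the authors deposited it. It ranks peaks within a list and is not compared between lists.

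A member was counted in a library when a summit fell in its span or within 3 kb of either end. This was so for 33 and 32 members in the PPARα+ERα libraries, 20 and 37 in the PPARα+ERβ libraries and 37 and 43 in the PPARα libraries. In the PPARα+ERα libraries these were 29.5 and 28.6% of the members, beside 34.8 and 37.5% of all 19126 genes counted the same way. The PPARα+ERβ libraries gave 17.9 and 33.0% of members, beside 29.9 and 36.4% of all genes, and the PPARα libraries 33.0 and 38.4%, beside 33.7 and 45.1%. The share of members was below that of all genes in each library. The PPARα+ERα mean of 32.5 ± 0.707 members lay below the PPARα mean of 40.0 ± 4.24 with no overlap (SD, n = 2; exact two-sided permutation test, p = 0.333). The PPARα+ERβ libraries averaged 28.5 ± 12 members and the higher of them equalled the lower PPARα library, at 37 (exact two-sided permutation test, p = 0.667), and the PPARα+ERα mean lay within the PPARα+ERβ spread (exact permutation test, p = 1.0). With 2 libraries against 2, no p below 0.333 is possible, so these differences cannot be separated from the variation between libraries.

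Gene length bears on such counts, because a longer span can hold more summits. Over the 6 libraries, 82 members (73.2%) had a peak in at least 1, beside 65.2% of all genes. The members are short, with a median span of 11.4 kb (0.276 to 222.7) beside 24.5 kb over all genes. Among genes under 10 kb, 32 of 51 members (62.7%) had a peak in at least 1 library, beside 29.7% of all genes of that length. Of 10 to 50 kb, 39 of 50 members (78.0%) did, beside 66.4%, and all 11 members of 50 kb or more did, beside 95.2%. Within 3 kb of a gene end, 17.0 and 18.8% of members had a peak with PPARα+ERα, 10.7 and 21.4% with PPARα+ERβ and 15.2 and 22.3% with PPARα. All genes gave 11.1 and 13%, 8.32 and 11.3%, and 9.39 and 15.2% for the same libraries, so at gene ends the members stood above the background in each of the 6. Per length of window the members were also higher, at 15.36 and 15.96 peaks per Mb with PPARα+ERα, 9.03 and 15.1 with PPARα+ERβ and 15.4 and 17.2 with PPARα, beside 10.1 and 11.4, 7.32 and 9.75, and 9.39 and 14.7 over all gene windows.

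Overlapping peaks of the 6 libraries were joined into regions. A member was called bound in a group if the same region carried a summit inside its window in each of that group's 2 libraries. Bound here means only that peaks were called. With PPARα+ERα 13 members were bound (11.6%, beside 17.7% of all genes), with PPARα+ERβ 11 (9.82%, beside 21%) and with PPARα 27 (24.1%, beside 28.2%). The 36 members bound in at least 1 group had a median span of 25.1 kb, and the 76 others 8.44 kb. ATP5F1D, NDUFAF6, NDUFS4 and UQCC1 were bound in all 3 groups (3.57%, beside 6.97% of all genes). NDUFA10 was bound with PPARα+ERα and PPARα+ERβ only (0.893%, beside 1.24%), and COX7A2L and UQCRC2 with PPARα+ERα and PPARα only (1.79%, beside 2.86%). COX7C, NDUFAF7, NDUFC1 and SDHB were bound with PPARα+ERβ and PPARα only (3.57%, beside 9.68%). Bound in a single group were 5.36% of members with PPARα+ERα, 1.79% with PPARα+ERβ and 15.2% with PPARα, beside 6.67, 3.11 and 8.69%. By complex, the members bound with PPARα+ERα were 6 of 44 of complex I, 0 of 8 of complex II, 2 of 15 of complex III, 2 of 25 of complex IV and 3 of 20 of complex V. With PPARα+ERβ they were 5, 2, 2, 1 and 1 in the same order, and with PPARα 10, 4, 3, 6 and 4. Of the 9 assembly factors of complex IV only COX18 was bound, and only with PPARα, under the main settings.

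**Figure D1:**
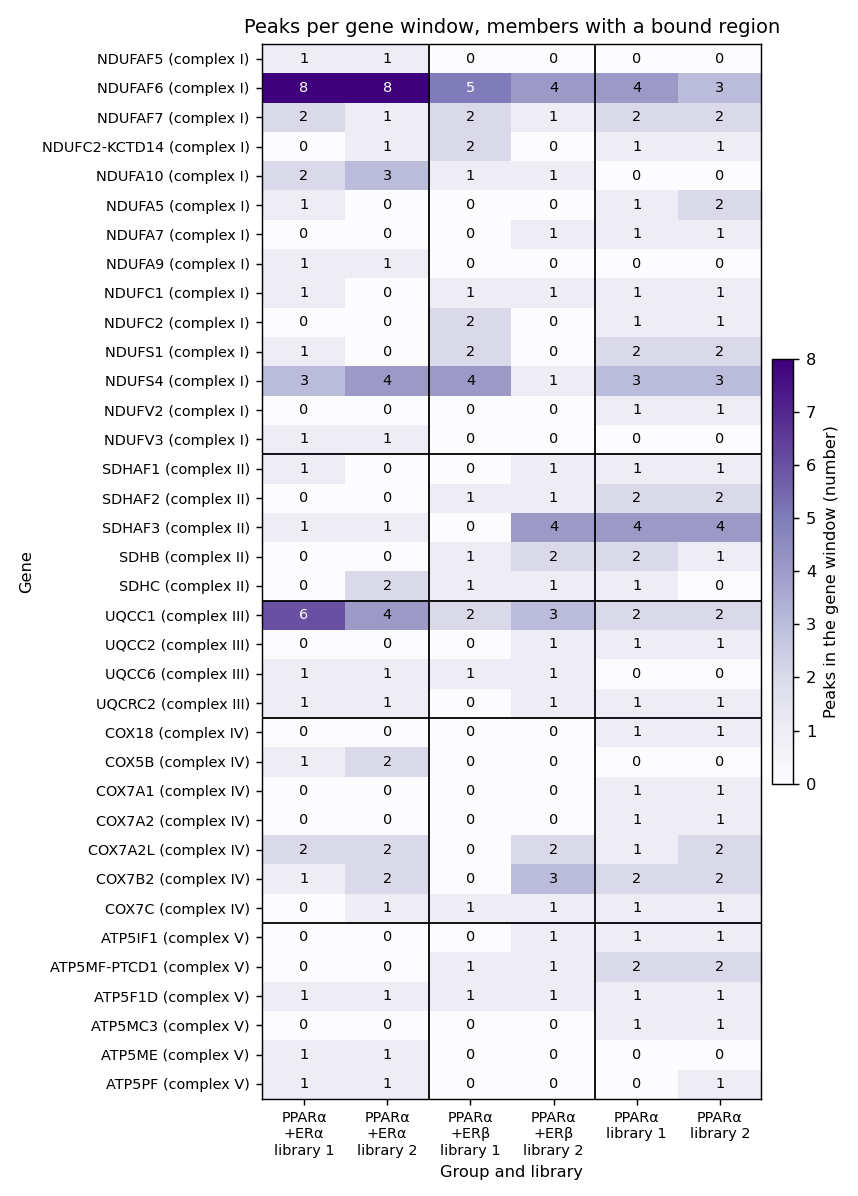
Number of peaks in the window of each of the 36 members bound in at least 1 group (rows, by complex) in each library (columns). NDUFAF6 held 8 and 8 peaks with PPARα+ERα, 5 and 4 with PPARα+ERβ and 4 and 3 with PPARα, while COX5B and ATP5ME had peaks only in the PPARα+ERα libraries and ATP5F1D a single peak in each of the 6.

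Few of these regions lay at a transcription start. RefSeq lists a promoter window, 250 bases before to 50 after a start, for 92 of the 112 members. The only member with a peak over such a window was NDUFA10, an accessory subunit of complex I, and only in the PPARα+ERβ libraries, where the window shared 141 bases with the region chr2:240025452-240025960. Over all 15101 genes with a listed window, 0.603 and 0.728% had a peak over it with PPARα+ERα, 0.523 and 0.616% with PPARα+ERβ and 0.411 and 0.622% with PPARα. The windows of 4 members with a bound region nearest their start are given 5′ to 3′ (RefSeq, GRCh38.p14), as chr2:240025293-240025592, minus strand, for NDUFA10, chr2:97645812-97646111, plus strand, for COX5B, chr21:42893059-42893358, plus strand, for NDUFV3 and chr5:86617691-86617990, plus strand, for COX7C. The median summits stood 563 bases upstream of the NDUFA10 start, 959 downstream of COX5B, 982 upstream of NDUFV3 and 1037 upstream of COX7C. Capitals mark, for NDUFA10, the 141 bases inside the region and, for COX5B, matches to the ETS-family motif CCGGAAG.
NDUFA10: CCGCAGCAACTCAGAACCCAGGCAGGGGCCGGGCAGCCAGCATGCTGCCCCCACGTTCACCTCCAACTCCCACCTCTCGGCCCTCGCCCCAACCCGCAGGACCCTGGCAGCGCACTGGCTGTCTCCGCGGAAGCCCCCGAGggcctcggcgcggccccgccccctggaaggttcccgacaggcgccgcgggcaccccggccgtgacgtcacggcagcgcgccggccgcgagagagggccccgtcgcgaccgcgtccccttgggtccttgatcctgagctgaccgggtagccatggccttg
COX5B: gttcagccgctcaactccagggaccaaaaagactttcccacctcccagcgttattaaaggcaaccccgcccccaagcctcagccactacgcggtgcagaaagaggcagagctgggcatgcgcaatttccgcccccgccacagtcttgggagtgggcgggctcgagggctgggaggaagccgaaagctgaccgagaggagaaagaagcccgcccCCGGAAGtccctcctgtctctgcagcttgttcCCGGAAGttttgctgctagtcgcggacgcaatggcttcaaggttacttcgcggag
NDUFV3: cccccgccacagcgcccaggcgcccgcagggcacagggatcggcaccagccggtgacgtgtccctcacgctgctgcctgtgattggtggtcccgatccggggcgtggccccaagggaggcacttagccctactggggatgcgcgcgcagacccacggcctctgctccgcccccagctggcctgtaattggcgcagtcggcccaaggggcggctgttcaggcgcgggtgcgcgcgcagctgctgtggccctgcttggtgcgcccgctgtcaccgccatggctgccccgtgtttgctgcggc
COX7C: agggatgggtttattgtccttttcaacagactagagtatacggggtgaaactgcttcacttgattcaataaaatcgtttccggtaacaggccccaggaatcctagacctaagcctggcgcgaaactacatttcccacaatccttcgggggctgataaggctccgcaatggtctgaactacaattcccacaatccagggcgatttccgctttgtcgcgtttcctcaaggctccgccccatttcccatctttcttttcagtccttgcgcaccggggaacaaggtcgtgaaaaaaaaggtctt

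Of the motifs searched on both strands, the COX5B window held CCGGAAG at bases 214 to 220 and 246 to 252, and the other 3 windows held none. Among the members' windows, CCGGAAG was found for 28 of 92 genes (30.4%) beside 16.7% of all genes. The NRF1 motif, GCGCA directly before TGCGC, was found for 7 of 92 (7.61%) beside 2.00%, and the YY1 motif, AAGATGG directly before CGGC, for 7 of 92 (7.61%) beside 1.60%. The nuclear receptor hexamer AGGTCA was in the windows of 22 of 92 (23.9%) beside 15.3%. The direct repeat of AGGTCA with any 1 base between the copies, the type of element bound by PPARα with RXR, and the estrogen response element, GGTCA and TGACC with any 3 bases between, were in none of the 92, and over all genes in 0.0331 and 0.0530%. These counts describe letters in the windows, and the hexamer is contained in the direct repeat.

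Setting PPARα+ERα against PPARα asks how PPARα peaks differ with ERα and its agonist present. A region counted as differing had peaks in both libraries of one group and in neither of the other. Among members, 12 had a PPARα+ERα region absent with PPARα, beside 17.1% of all genes, and 26 had a PPARα region absent with PPARα+ERα, beside 27.2%. These are 10.7 and 23.2% of the members. Both shares were below the background here and above it in 2 alternatives. Counting only gene ends gave 5.36% of members beside 4.46% of all genes for PPARα+ERα regions and 9.82 beside 6.72% for the reverse. Calling by gene, with any peaks in both libraries of one group and none in the other, gave 7.14 beside 5.39% and 12.5 beside 7.77%.

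In complex I, the PPARα+ERα regions lay at the subunit genes NDUFA10, NDUFA9, NDUFS4 and NDUFV3 and the assembly factor genes NDUFAF5 and NDUFAF6. NDUFA10 had fold 5.28 and 4.77 with PPARα+ERα and no peak with PPARα. NDUFAF5, which hydroxylates an arginine of NDUFS7 during assembly, had fold 7.33 and 5.20 at chr20:13807948-13808285. Neither PPARα library had a peak at either region. NDUFS4, an accessory subunit mutated in Leigh syndrome, had fold 6.58 and 5.19 at chr5:53572325-53572664. NDUFA9 had fold 4.32 and 4.93 at chr12:4678314-4678653. NDUFV3 had fold 6.44 and 4.21 at chr21:42892255-42892587, which is also in the window of the neighbouring gene WDR4. The NDUFA9 and NDUFV3 peaks were weak within their lists, at percentiles of −log10 q as low as 19.7 and 16.3.

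In complexes III to V the weaker library's percentile for a gene's best region ran between 56.0 (COX7A2L) and 96.7 (COX5B), and in complex I between 16.3 (NDUFV3) and 82.2 (NDUFAF6). COX5B, a nuclear-encoded subunit of cytochrome c oxidase, led with fold 10.6 and 11.5 and −log10 q of 14.3 and 16.6 at chr2:97646850-97647170, percentiles 96.7 and 97.5 of their lists. ATP5ME, the e subunit of the ATP synthase membrane part, had fold 10.1 and 9.86 at chr4:672262-672611, a place within the windows of MYL5 and PDE6B as well. UQCRC2, the core 2 subunit of complex III, had fold 7.19 and 10.7 at chr16:21954889-21955345, which is also in the window of PDZD9. No library of the other groups had a peak at any of these 3 regions. ATP5PF, coupling factor 6 of the peripheral stalk, had fold 8.02 and 6.72 at chr21:25725109-25725453, and COX7A2L, a factor of respiratory supercomplexes, 6.05 and 9.84 at chr2:42347921-42348294 and 5.00 and 9.75 at chr2:42348917-42349335. UQCC1, an assembly factor needed for cytochrome b, had 3 such regions, the strongest with fold 7.82 and 13.1 at chr20:35387435-35388002. Called by region, no complex II gene was on this side.

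On the PPARα side, 10 members were of complex I, namely the subunits NDUFA5, NDUFA7, NDUFC1, NDUFC2, NDUFS1, NDUFS4 and NDUFV2, the assembly factors NDUFAF6 and NDUFAF7 and the readthrough gene NDUFC2-KCTD14, which shares its region with NDUFC2. NDUFS4 had fold 7.07 and 9.69 at chr5:53667489-53667965, NDUFC1 had 5.00 and 5.47 at chr4:139289874-139290332, and NDUFA5 had 3.86 and 5.31 at chr7:123574671-123575075. All of these were absent from both PPARα+ERα libraries. NDUFAF7, an assembly factor of complex I, had fold 5.07 and 7.78 at chr2:37266035-37266504, where the window of PRKD3 also reaches. The NDUFC2 region (fold 5.66 and 10.3) lies also by THRSP, a lipogenic gene of the liver, so that these peaks cannot be assigned to NDUFC2 alone.

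Called by region, complex II genes stood only on the PPARα side, with SDHB, the iron-sulfur subunit, and the assembly factors SDHAF1, SDHAF2 and SDHAF3. SDHAF3, which acts in maturing SDHB, had 3 regions, the strongest with fold 7.53 and 10.7 at chr7:97146245-97146804. SDHAF1, of the same protein family, had 5.23 and 8.94 at chr19:35992428-35992896, 2597 bases upstream of its start. SDHAF2, which flavinylates SDHA, had 4.31 and 3.54 at chr11:61427659-61427996, with its summit 2385 bases outside the span, in the window of CPSF7 as well. These SDHAF1 and SDHAF2 regions fall outside a 1 kb window, and their lower percentiles of −log10 q were 18.2 and 35.5. That makes 4 of 8 complex II genes (50.0%), a small set in which 1 gene is 12.5%, beside the 27.2% of all genes. The same call took in 22.7% of complex I, 20.0% of complex III, 24.0% of complex IV and 15.0% of complex V. Complex II had the highest of these shares, which were not tested. Called by gene, the picture differed. SDHA had 1 and 1 peaks in the PPARα+ERα libraries and 0 and 0 with PPARα, which puts it on the PPARα+ERα side. SDHAF3 (1 and 1) and SDHAF1 (1 and 0) also had PPARα+ERα peaks, so only SDHB and SDHAF2 stayed on the PPARα side.

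In complexes III to V, PPARα regions absent with PPARα+ERα lay at UQCC1, UQCC2, UQCRC2, COX18, COX7A1, COX7A2, COX7A2L, COX7B2, COX7C, ATP5IF1, ATP5MC3 and ATP5MF-PTCD1. The last is a readthrough gene whose region lies outside the window of ATP5MF, and ATP5MF itself had no peak in any library. UQCC2, the partner of UQCC1, had fold 6.64 and 8.22 at chr6:33704698-33705050. COX7C had 5.23 and 8.28 at chr5:86616756-86617206, COX7B2, a testis isoform, 5.44 and 6.77, and COX7A2L 3.49 and 4.90. PPARα+ERα peaks were absent at each of them. COX18, which inserts part of the mitochondrially encoded COX2 into the membrane, had 5.78 and 5.09 at chr4:73052937-73053378. ATP5IF1, the inhibitor of ATP hydrolysis by complex V, had 3.58 and 4.58 at chr1:28240633-28241044. COX7A1, the muscle isoform, had 4.63 and 9.13 beside CAPNS1, and COX7A2, the isoform of liver and other tissues, 2.93 and 2.88.

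COX7A2L, NDUFAF6, NDUFS4, UQCC1 and UQCRC2 had regions on both sides, 5 members (4.46%) beside 9.19% of all genes, so a gene with a differing region could hold peaks in both groups. The PPARα region of UQCRC2 had fold 2.83 and 2.34 at chr16:21967678-21968015, likewise in the window of PDZD9. Of the 17 member regions bound with PPARα+ERα, 1 (5.88%) was among the 35 bound with PPARα (2.86%), beside 1.86% of all regions bound with PPARα+ERα and 0.954% of all those bound with PPARα. No peak in any other library was found for 15 of the 17 (88.2%), beside 89.8% of all PPARα+ERα regions. The counts moved when only peaks whose local background did not exceed 3 times the genome-wide level were kept. This filter kept 74.0 and 76.7% of the PPARα+ERα peaks and 15.6 and 12.4% of the PPARα peaks. It thus shortened the lists unequally, and the counts under it cannot separate local background from list length. With it, 10 members had a PPARα+ERα region absent with PPARα (8.93%, beside 13.9% of all genes) and 4 the reverse (3.57%, beside 4.44%). The order turned over all genes as it did among members. Leaving out a library also moved the counts. Members with a PPARα+ERα region absent with PPARα were 32 (28.6%, beside 33.7% of all genes) without PPARα+ERα library 2 and 31 (27.7%, beside 36.4%) without library 1. The reverse was 42 (37.5%, beside 44.2%) without PPARα library 1.

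**Figure D2:**
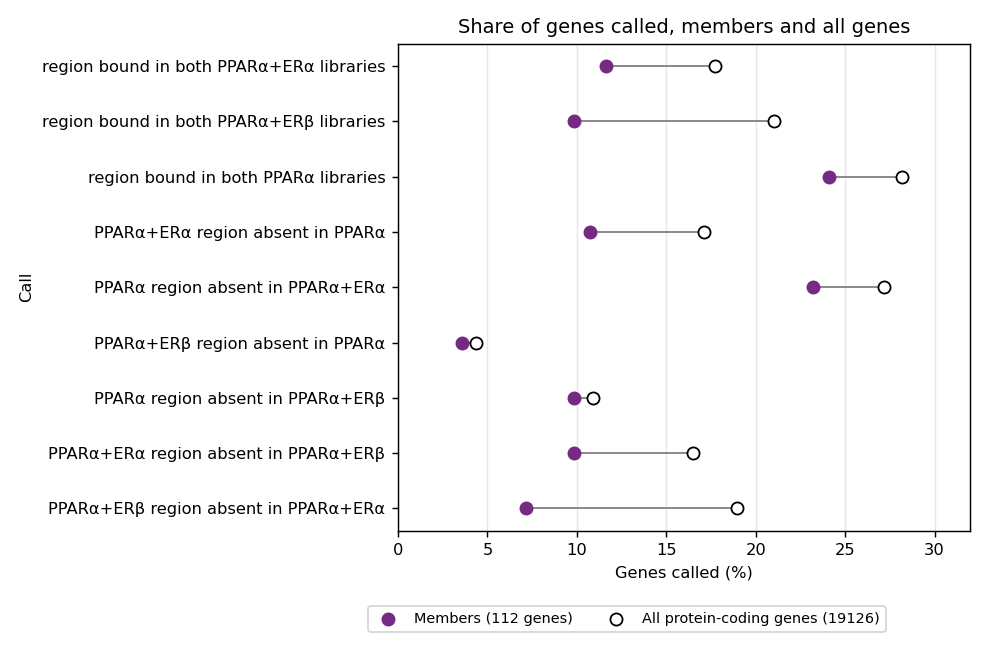
Share of the 112 members (filled) and of all 19126 protein-coding genes (open) called by each rule. Under these settings the members lie below the background in each call, nearest for regions that differ between PPARα+ERβ and PPARα (3.57 beside 4.36%, and 9.82 beside 10.9%), while with gene ends only, 6 of the 9 calls have the members above it. The shares are not matched for gene length, and the median span was 11.4 kb for members and 24.5 kb for all genes.

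PPARα+ERβ was set against PPARα to ask the same of ERβ. Only 4 members had a PPARα+ERβ region absent with PPARα (3.57%, beside 4.36% of all genes), and 11 had the reverse (9.82%, beside 10.9%). The first set was led by NDUFA10, with fold 8.80 and 6.83 and −log10 q of 26.9 and 24.2, percentiles 98.5 and 96.2 of their lists. It was followed by UQCC1 (3.03 and 3.77 at chr20:35328013-35328451), UQCC6, a small complex III assembly factor (2.80 and 3.88), and NDUFAF6 (2.38 and 2.76). NDUFAF6 and UQCC1 had regions on both sides of this comparison (1.79% of members, beside 1.25% of all genes). UQCC6 and NDUFAF6 were weak within their lists, with percentiles as low as 11.1 and 4.50.

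PPARα regions absent with PPARα+ERβ were found at NDUFA5, NDUFAF6, NDUFS1, NDUFS4 and NDUFV2 of complex I, SDHAF3 of complex II, UQCC1 of complex III, COX18, COX7A1 and COX7A2 of complex IV and ATP5MC3 of complex V. NDUFA5 ranked highest, with the region it shares with ASB15, followed by NDUFAF6 (fold 3.47 and 4.04 at chr8:95034466-95034898) and COX18. ATP5MC3, a c-ring subunit, had fold 4.59 and 4.50 at chr2:175174755-175175080, UQCC1 had 2.64 and 3.46 and NDUFS4 3.44 and 3.52 at chr5:53651456-53651789. NDUFV2 and NDUFS1, core subunits of complex I that carry iron-sulfur clusters, had 2.79 and 3.74, and 3.69 and 7.11. All 11 were also without a PPARα+ERα peak in those regions. The SDHAF3 region of this set was another than its strongest, at chr7:97164923-97165372 with fold 6.19 and 3.71.

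Of the 14 member regions bound with PPARα+ERβ, 9 (64.3%) were bound with PPARα too, beside 64.0% of all PPARα+ERβ regions. These 9 are 25.7% of the 35 member regions bound with PPARα, beside 37.3% of all PPARα regions. Another 15 of the 35 (42.9%, beside 32.1%) had a peak in a single PPARα+ERβ library, and 11 (31.4%, beside 30.6%) in neither. Regions in both groups included SDHB (6.87 and 5.54 with PPARα+ERβ, 6.46 and 4.73 with PPARα, at chr1:17050656-17051000), COX7C (5.34 and 5.71, against 5.23 and 8.28), NDUFC1 (3.57 and 3.32, against 5.00 and 5.47) and NDUFAF7 (3.20 and 3.99, against 5.07 and 7.78). The group counts again moved with single libraries. Members with a PPARα+ERβ region absent with PPARα were 18 (16.1%, beside 16% of all genes) without PPARα+ERβ library 1 and 9 (8.04%, beside 12%) without library 2. The reverse was 25 (22.3%, beside 30.4%) without PPARα library 1, 18 (16.1%, beside 16%) without PPARα library 2 and 19 (17.0%, beside 17.7%) without PPARα+ERβ library 2. Called by gene, both directions had members above the background, 1.79 beside 1.09% and 5.36 beside 3.19%.

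The cells with an added estrogen receptor were also set against each other. Members with a PPARα+ERα region absent with PPARα+ERβ numbered 11 (9.82%, beside 16.5% of all genes), and the reverse 8 (7.14%, beside 19%). The order among members did not hold in every setting. Lists of equal length gave 7 and 9 (6.25 and 8.04%, beside 12.1 and 17.8% of all genes). A −log10 q of at least 5 gave 7 and 7 (6.25 and 6.25%, beside 11 and 15.6%). Over all genes the reverse was the larger in both of these settings and in the main one. The 11 were the 12 genes named for PPARα+ERα above other than NDUFA10, whose region chr2:240025452-240025960 was bound in both groups. NDUFAF6, NDUFS4 and UQCC1 were on both sides (2.68% of members, beside 6.8% of all genes). The 8 were NDUFAF6, NDUFAF7, NDUFC1 and NDUFS4 of complex I, SDHB of complex II, UQCC1 and UQCC6 of complex III and COX7C of complex IV. NDUFAF6 ranked highest, with fold 14.5 and 12.8 at chr8:94897211-94897722, a region it shares with CCNE2, the cyclin E2 gene. The UQCC6 region, the UQCC1 region chr20:35328013-35328451 and the NDUFAF6 region chr8:94964433-94964762 had no peak in any other library, and the other regions of these 8 genes on this side had peaks in both PPARα libraries. SDHC, the membrane anchor of complex II, was bound only with PPARα+ERβ (6.28 and 5.71), but 1 library of each other group also had a peak there. Removing PPARα+ERα library 2 raised the number with a PPARα+ERα region to 32 (28.6%, beside 33% of all genes), and removing library 1 to 31 (27.7%, beside 35.7%). Removing PPARα+ERβ library 1 gave 33 members on the other side (29.5%, beside 34%), and removing library 2 gave 17 (15.2%, beside 27.4%). With low-background peaks alone the other side held 1 (0.893%, beside 3.71%). That filter kept 21.1 and 24.2% of the PPARα+ERβ peaks, beside 74.0 and 76.7% of the PPARα+ERα peaks.

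A single member region was found in all 6 libraries. It lay 1992 bases outside the span of ATP5F1D, the δ subunit of the F1 central stalk, at chr19:1246574-1247152, and is also in the window of MIDN. Its fold was 3.996 and 4.755 in the PPARα+ERα libraries, 9.25 and 6.51 with PPARα+ERβ and 6.18 and 4.45 with PPARα, and its −log10 q 3.48 and 5.32, 22.1 and 13.7, and 11.2 and 6.35. Of the 183 member regions, 113 had a peak in 1 library only. No share over all regions is given beside these counts, and they are not read as particular to the members.

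The 3 members with most peaks show how the groups differ within a gene. NDUFAF6, an assembly factor for the early ND1 part of complex I, held regions bound with PPARα+ERβ and PPARα near the lower-coordinate end of its span, at chr8:94897211-94897722 (fold 14.5 and 12.8 with PPARα+ERβ, 13.3 and 16.8 with PPARα) and at chr8:94937441-94937900 (9.72 and 14.7, against 15.2 and 21.0). The second lies also by TP53INP1. The PPARα+ERα regions of NDUFAF6 bound in both libraries lay near the other end, at chr8:95095318-95095680 (5.33 and 6.50) and chr8:95100261-95100594 (8.39 and 5.96). Between these lay a bound PPARα+ERβ region (2.38 and 2.76 at chr8:94964433-94964762) and a bound PPARα region (3.47 and 4.04 at chr8:95034466-95034898). PPARα+ERα peaks of a single library were spread from -2.655 to 183.8 kb from the lower-coordinate end. NDUFS4 had its PPARα+ERα region in the lower-coordinate part and its bound PPARα+ERβ and PPARα regions in the other, the shared region chr5:53667489-53667965 having fold 5.06 and 3.24 with PPARα+ERβ and 7.07 and 9.69 with PPARα. In UQCC1, regions of different groups lay side by side. The region chr20:35375955-35376470 was bound with PPARα+ERβ (3.15 and 7.70) and PPARα (4.37 and 5.62), and chr20:35376965-35377311 with PPARα+ERα (7.99 and 7.70).

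**Figure D3:**
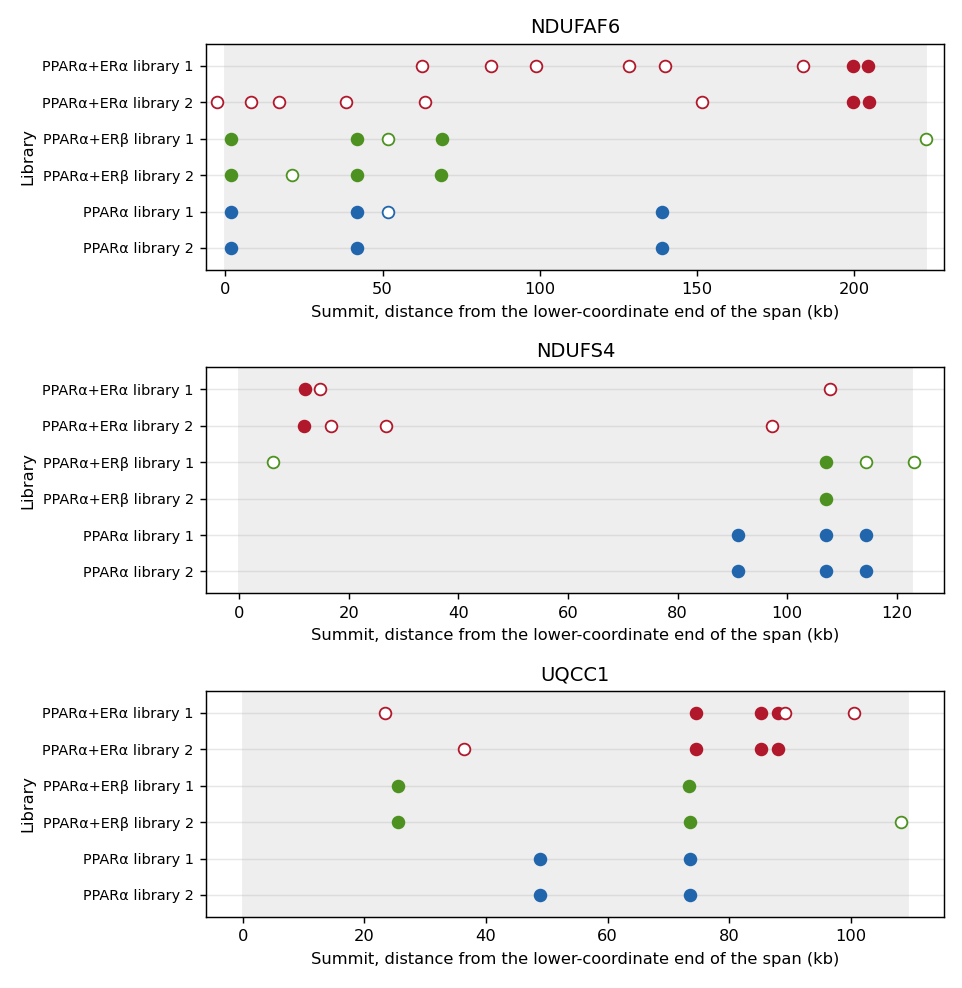
Summits in NDUFAF6, NDUFS4 and UQCC1 by library, as distance in kb from the lower-coordinate end of each span (grey), filled where both libraries of the group had a peak in the region. No bound PPARα+ERα region coincides with a bound region of the other groups, which share regions in each gene, such as the first NDUFAF6 region with fold 14.5 and 12.8 with PPARα+ERβ and 13.3 and 16.8 with PPARα.

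The local background under the peaks differed between groups. Over the member regions bound in a group, its median was 1.93 times the genome-wide level with PPARα+ERα (1.00 to 8.61, 17 regions), 9.71 times with PPARα+ERβ (1.56 to 30.7, 14 regions) and 11.5 times with PPARα (1.00 to 46.3, 35 regions). Bound regions of the whole genome had medians of 1.57, 9.34 and 14.6. Fragments stacked at these member regions had medians of 13, 32.2 and 49. The part of this background in the differences between groups was not tested. The counts with low-background peaks given above do not test it, because that filter kept unlike shares of the lists. The COX5B, ATP5ME and NDUFA9 peaks of PPARα+ERα stood on 1.57, 1.00 and 1.00 times the genome-wide level in library 1, and the UQCC1 peaks of PPARα at chr20:35351394-35351760 on 46.6 and 45.9 times. The NDUFA10 peaks stood on 8.61 and 8.61 times with PPARα+ERα and 7.42 and 9.33 times with PPARα+ERβ, and the NDUFAF6 peaks of PPARα at chr8:94937441-94937900 on 2.33 and 2.31 times.

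**Figure D4:**
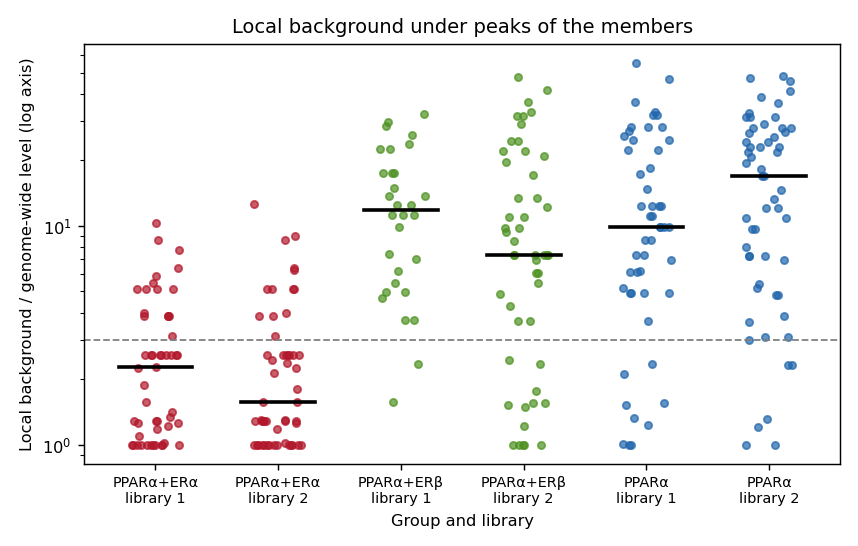
Local background under each peak of the members as a multiple of the genome-wide level of its list (log axis), by library, with medians as bars and a dashed line at 3. Medians were 2.27 and 1.56 in the PPARα+ERα libraries, 11.8 and 7.31 with PPARα+ERβ and 9.82 and 16.9 with PPARα.

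No peak in any library was found for 30 of the 112 members, and 30 had peaks in 1 library only. A peak in at least 1 library was found for 73.2% of members and 65.2% of all genes. Members thus lacked peaks less often than genes in general. No share over all genes is given for the count with 1 library. The 30 without a peak include the core complex I subunit genes NDUFS7 and NDUFV1, the complex III genes UQCRC1, UQCRB, UQCRH and UQCRQ, the cytochrome c oxidase genes COX6A1, COX6C and COX8A, the copper chaperone gene COX17 and the ATP synthase genes ATP5F1B, the catalytic β subunit, and ATP5PB. At this depth such genes had no called peak, which does not show that PPARα is absent. Of the complex II catalytic subunit gene SDHA, both PPARα+ERα libraries had 1 peak each but not in the same region.

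Other genes of the pathway were taken from a list of 72 outside the symbol rule. Of these, 13 were bound with PPARα+ERα (18.1%), 14 with PPARα+ERβ (19.4%) and 17 with PPARα (23.6%), beside 17.7, 21 and 28.2% of all genes. PPARα+ERα regions absent with PPARα lay at 13 (18.1%, beside 17.1%) and the reverse at 16 (22.2%, beside 27.2%), PPARα+ERβ regions absent with PPARα at 4 (5.56%, beside 4.36%) and the reverse at 5 (6.94%, beside 10.9%). Among 17 genes of ubiquinone synthesis and electron entry, 7 (41.2%, beside 17.1% of all genes) had a PPARα+ERα region absent with PPARα, namely COQ2, COQ3, COQ6, COQ8B, PDSS2, SQOR and ETFA, and of these PDSS2 and SQOR also had PPARα regions. The same call was made for 2 of 10 genes of complex I assembly (20.0%), 2 of 27 of complexes II to IV (7.41%), 0 of 5 of ATP synthase assembly and 2 of 13 regulators (15.4%), and the ubiquinone and electron entry list was singled out after its values were seen. Among the 13 regulators of respiratory genes, 2 (15.4%) were bound with PPARα+ERα, 5 (38.5%) with PPARα+ERβ and 6 (46.2%) with PPARα, beside 17.7, 21 and 28.2% of all genes. With PPARα, 30.0% of the complex I assembly list, 18.5% of complexes II to IV, 0 of ATP synthase assembly and 17.65% of ubiquinone and electron entry were bound. The regulator shares were set out with their values known, were not tested and are not matched for gene length. NRF1 had a PPARα+ERα region (fold 4.70 and 4.97). Its PPARα+ERβ region (7.70 and 6.77) also had a peak in PPARα library 2 (4.32). GABPB1 had regions bound with PPARα+ERα and others with PPARα+ERβ. PPARGC1A, encoding PGC-1α, had a region bound with PPARα+ERβ (fold 10.1 and 9.47) and PPARα (13.5 and 19.1) and in neither PPARα+ERα library, at chr4:23912320-23912807. PPARGC1B and PPRC1, the related coactivators, were likewise bound in those groups, and ESRRA, encoding ERRα, with PPARα (2.57 and 6.91). The complex I assembly gene NUBPL, which inserts iron-sulfur clusters, had PPARα+ERα regions absent with PPARα and PPARα regions absent with PPARα+ERα.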

How the data were processed

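Chromatin of HepG2 cells was precipitated with an anti-PPARα antibody. Per the submitters' processing notes, the tools were MACS2 2.2.7.1, Bowtie 1.0.1, Trim Galore 0.6.4, DiffBind 2.16, HOMER 4.11 and ChIPseeker 1.18.0, and the builds hg38 and GRCh38.p13. Their roles and the control used for calling are not given in the sources used here. The authors deposited 1 narrowPeak list per library. Its deposited score is the whole-number part of 10 times the −log10 q, its fold is a ratio of summit to local background, and −log10 q and −log10 p were deposited for each summit. The deposited summit offset is counted in bases from the peak start.

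Summits were assigned to gene spans of GRCh38.p14, whose chromosomes share the coordinates of GRCh38.p13, within 3 kb. Peaks overlapping by 1 bp were merged over the 6 libraries. Fragments and local background were recovered taking fold as a ratio with 1 added to both parts and p as a Poisson tail, within 0.001 of the deposited −log10 p for 100% of peaks, and the genome-wide level is percentile 1 of a list's backgrounds. Precision is limited by these fragment numbers, and read totals were not used. Libraries are numbered by order of deposit. All other counts are descriptive, without a set test.

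Members, lists and calls were chosen with earlier results of these data known. Genes named are all members with a region differing between groups. Values are given for the 12 ranked highest by the lower within-list percentile of −log10 q, for those with peaks in 5 or more libraries and for those on both sides. Values are also given for NDUFC2, SDHAF1, SDHAF2 and SDHC, which these rules do not select. The −log10 q is printed for a few and enters the ranking of all. The planned rule for printing promoters, bound summits within 300 bp of the window, selected no gene, and the 4 shown were chosen after values were seen. Steps were tested on simulated data. Alternatives were the window, gene ends only, −log10 q of at least 5, equal list lengths, low-background peaks, summits within 100 bp, gene-level calls and leaving out each library. Scripts ran in Python 3.11.15 with SciPy 1.17.1, NumPy 2.4.6, pandas 2.3.3 and, for plots, Matplotlib 3.10.9.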

Additional observations from a re-analysis of the deposited data

How the results depend on the processing

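Of 102 counts under alternative settings, 56 were within 1.5 times the value reported. All counts with a 1 kb window and with summits chained within 100 bp were. No paired analysis was possible because the labels give no replicate numbers and library numbers follow the order of deposit. The members' share was below that of all genes in each of the 9 calls reported, but above it in 12 of 72 values under other settings (6 with gene ends, 4 by gene, 1 at −log10 q of at least 5 and 1 with equal list lengths) and in 2 of 30 that left out a library. In the order bound with PPARα+ERα, PPARα+ERβ and PPARα, gene ends alone gave 7, 5 and 12 members (6.25, 4.46 and 10.7%, beside 4.71, 5.06 and 7.1% of all genes). Gene ends gave 6 members for PPARα+ERα regions absent with PPARα and 11 for the reverse, 1 and 3 (0.893 and 2.68%, beside 0.925 and 1.83%) for PPARα+ERβ against PPARα, and 5 and 3 (4.46 and 2.68%, beside 4.17 and 4.33%) for PPARα+ERα against PPARα+ERβ. A 10 kb window gave 22 bound with PPARα+ERα, 20 with a region absent with PPARα and 18 absent with PPARα+ERβ (all genes 21.8, 21 and 20.2%). At −log10 q of at least 5 there were 8 bound with PPARα+ERα, 7 with a region absent with PPARα+ERβ and 2 with a PPARα+ERβ region absent with PPARα (all genes 11.6, 11 and 3.15%). Lists cut to 17032 peaks gave 8 bound with PPARα+ERα, 7 absent with PPARα+ERβ, and 7 with a PPARα region absent with PPARα+ERβ (all genes 12.9, 12.1 and 6.17%). Low-background peaks alone gave 2 bound with PPARα+ERβ and 4 with PPARα, 4 with a PPARα region absent with PPARα+ERα, 0 and 1 for PPARα+ERβ against PPARα, and 1 with a PPARα+ERβ region absent with PPARα+ERα (all genes 5.44, 5.57, 4.44, 1.35, 0.972 and 3.71%). Calls by gene gave 14 for PPARα absent with PPARα+ERα, 2 and 6 for PPARα+ERβ against PPARα, and 7 and 3 for PPARα+ERα against PPARα+ERβ (all genes 7.77, 1.09, 3.19, 6.4 and 5.19%). Leaving out a library, bound members ranged over 32 to 33 with PPARα+ERα, 20 to 37 with PPARα+ERβ and 37 to 43 with PPARα. Regions that differed ranged over 12 to 32 and 26 to 42 members for PPARα+ERα against PPARα, 4 to 18 and 15 to 25 for PPARα+ERβ against PPARα, and 11 to 32 and 8 to 33 for PPARα+ERα against PPARα+ERβ. The bound members were 28.6 to 29.5, 17.9 to 33.0 and 33.0 to 38.4%. All genes gave 34.8 to 37.5, 29.9 to 36.4 and 33.7 to 45.1% bound. For regions that differed, all genes gave 17.2 to 36.4 and 27.5 to 44.2% for PPARα+ERα against PPARα. They gave 6.74 to 16 and 14.1 to 30.4% for PPARα+ERβ against PPARα, and 16.8 to 35.7 and 19.6 to 34% for PPARα+ERα against PPARα+ERβ. Calls that leave out a library need 1 peak in the remaining library of its group, which is looser. The causes of the other shifts were not tested.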

Other observations

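Some respiratory chain genes fell outside the symbol rule or off chromosomes 1 to 22. NDUFA1 and COX7B, on the X chromosome, each had 1 peak, in PPARα+ERα library 1, and NDUFB11 had none. COXFA4 and COXFA4L3 each had 1 peak in PPARα+ERα library 2, and COXFA4L2 had none. The mitochondrial chromosome, which encodes the remaining subunits, held 1 peak in each PPARα+ERα library and 0 in the PPARα+ERβ and PPARα libraries.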
